A study of Mus musculus with 20 samples.

Results

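Expression of 8 forebrain transcription factor genes was followed in 20 adult mouse hippocampi: Bcl11b, its paralog Bcl11a, Prox1, Zbtb20, Emx1, Emx2, Lhx2 and Meis2. They were found by gene symbol among the 48709 genes of the deposited table, and all 8 passed the filter on low counts that left 19797 genes for testing. Bcl11b was chosen by its own expression values, which were higher in nPM males than in control males, so its values in that contrast, and in any contrast that shares those males, are given as a description without a test. The other 7 genes and the female contrast of Bcl11b were tested.

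The study asked whether inhalation of urban air pollution by the pregnant dam leaves lasting changes in the hippocampus of the adult offspring. C57BL/6 dams (C57BL/6J by the study's methods) breathed re-aerosolized nPM (nanosized particulate matter collected from city air) in sessions of 5 h, on 3 days of each week, from gestational day 2 until birth, and control dams breathed filtered air. The dose is 300 per cubic metre, in mg by the sample labels and in μg by the study's methods. Total RNA of the right hippocampus was sequenced after ribosomal RNA depletion in 5 control females (Ct_F, 17.71 to 18.29 weeks of age), 5 nPM females (nPM_F, 18 to 18.29 weeks), 5 control males (Ct_M, 18.57 to 19.14 weeks) and 5 nPM males (nPM_M, 18.86 to 19.14 weeks). The methods state that male offspring received EdU, a label of dividing cells, some weeks before tissue collection, and that the offspring came from several litters per exposure, without naming the litter of a sample. The p-values therefore treat each mouse as independent.

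Between 19092067 and 38663408 reads were counted on genes per sample, with a median of 28290787 in control males and 35153717 in nPM males. Replicates of a group differed by 14.7 to 82.2 times the counting noise over 40 pairs, so no sample was a repeat of another. Y-linked genes held 7875 to 11883 counts in every male and at most 20 in every female. Markers of dentate granule cells (212 to 470 summed CPM), CA1 (300 to 500 summed CPM) and CA3 (135 to 242 summed CPM) were present in all samples. CPM are counts scaled to library size after TMM normalization. Tissue next to the hippocampus was present in unequal amounts: 10 choroid plexus markers summed to 43.4 to 8710 CPM, and 13 striatal markers to 157 to 221 CPM in 19 samples but to 650 CPM in nPM_F replicate 1.

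As background, several of these factors act in sequence when the medial wall of the developing forebrain becomes hippocampus. Lhx2, Emx1 and Emx2 are expressed in dorsal forebrain progenitors, where Lhx2 sets cortical identity and Emx2 is required for growth of the dentate gyrus. Zbtb20, a zinc finger repressor, specifies hippocampal neurons, Prox1 gives and maintains granule cell identity, and Bcl11b and Bcl11a are zinc finger proteins that bind the BAF and NuRD chromatin complexes and guide neuron differentiation. Meis2, a homeodomain protein of the TALE class, works with Pbx factors and is best known from striatal and olfactory bulb neurons. Bcl11b is also a standard marker of granule cells, of CA1 pyramidal cells, of deep-layer cortical neurons and of striatal projection neurons.

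Bcl11b (ENSMUSG00000048251.15) lies on chromosome 12 from 107910403 to 108003602 on the minus strand of mm10, and Bcl11a (ENSMUSG00000000861.15) on chromosome 11 from 24078056 to 24174123 on the plus strand. Their start-site windows are shown so that the chosen gene and its paralog can be set side by side in sequence as well as in expression, although nothing in these data measures the promoter. The windows hold 250 bases before and 50 after the start of transcription, come from RefSeq on GRCm38.p6, and run 5′ to 3′ along the gene, with CG dinucleotides in capitals. Bcl11b is at chr12:108003365-108003664 on the minus strand, Bcl11a at chr11:24080445-24080744 on the plus strand.
Bcl11b: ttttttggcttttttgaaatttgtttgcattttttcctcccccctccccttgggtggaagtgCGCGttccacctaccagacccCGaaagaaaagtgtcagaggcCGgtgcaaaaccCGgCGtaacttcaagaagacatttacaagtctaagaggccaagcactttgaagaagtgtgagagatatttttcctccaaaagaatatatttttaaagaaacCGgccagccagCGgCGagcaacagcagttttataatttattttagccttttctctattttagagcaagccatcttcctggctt
Bcl11a: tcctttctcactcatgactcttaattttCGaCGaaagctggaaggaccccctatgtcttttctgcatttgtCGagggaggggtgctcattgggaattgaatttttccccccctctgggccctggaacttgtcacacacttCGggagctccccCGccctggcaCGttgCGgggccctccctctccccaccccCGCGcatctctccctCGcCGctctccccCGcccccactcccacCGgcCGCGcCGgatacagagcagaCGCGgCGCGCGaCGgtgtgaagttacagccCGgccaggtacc
The Bcl11b window held 9 CG dinucleotides at 43% GC, and the Bcl11a window 23 at 63% GC. Over 32851 windows of the same length the median was 7 CG dinucleotides, and 54.2% of windows had fewer than Bcl11b while 78.5% had fewer than Bcl11a. Among the other genes the count ran from 3 in Zbtb20 to 37 in Emx1.

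Levels between genes were compared per length, as RPKM over the gene lengths of the deposited table. Zbtb20 was the highest at 27.2 ± 7.36 RPKM (SD, n = 20), followed by Bcl11b at 17.4 ± 2.44 RPKM and Prox1 at 12.8 ± 2.91 RPKM. Zbtb20 was above Bcl11b in 20 of 20 samples and Bcl11b above Prox1 in 19. Next came Bcl11a at 6.5 ± 1.62 RPKM, Lhx2 at 5.55 ± 0.815 RPKM and Meis2 at 4.17 ± 0.899 RPKM. Bcl11a exceeded Lhx2 in 15 of 20 samples, and the order of their group means differed between the sexes. Single males went either way: Bcl11a and Lhx2 were 5.61 and 5.10 RPKM in Ct_M replicate 3, but 4.75 and 7.41 RPKM in Ct_M replicate 1. In females Bcl11a had means of 7.94 RPKM (control) and 7.79 RPKM (nPM) against 5.52 and 5.61 RPKM for Lhx2, while in males it had 5.06 and 5.21 RPKM against 5.47 and 5.59 RPKM. Lhx2 exceeded Meis2 in 16 of 20 samples, and the difference between these neighbours was not tested. Emx2 (2.90 ± 0.366 RPKM) was above Emx1 (1.65 ± 0.284 RPKM) in all 20 samples. Bcl11b was above 86.4% of the 19797 tested genes in RPKM and Emx1 above 36.1%.

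The genes differed in how steady they were among mice of the same group. Bcl11b had a pooled within-group SD of 0.15 on the log2 scale, larger than that of 55.7% of 1000 genes of like level. Prox1 (SD 0.35, above 97.7% of such genes), Zbtb20 (SD 0.34, above 95.9%) and Meis2 (SD 0.31, above 94.1%) were among the most variable genes of their level. Over all 20 samples Zbtb20 spanned a 3.22-fold range, Prox1 2.37-fold, Meis2 2.08-fold and Bcl11b 1.74-fold. Counts of Zbtb20, Prox1, Lhx2, Bcl11a and Emx2 carry an added uncertainty, since each overlaps other annotated genes and the strand setting of the counting is not given in the sources used here. Emx2os, antisense to Emx2, held 120 to 326 counts per sample beside 156 to 357 for Emx2, while Prox1os held 21 to 112 beside at least 1704 for Prox1. No annotated gene overlaps Bcl11b, Emx1 or Meis2.

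**Figure D1:**
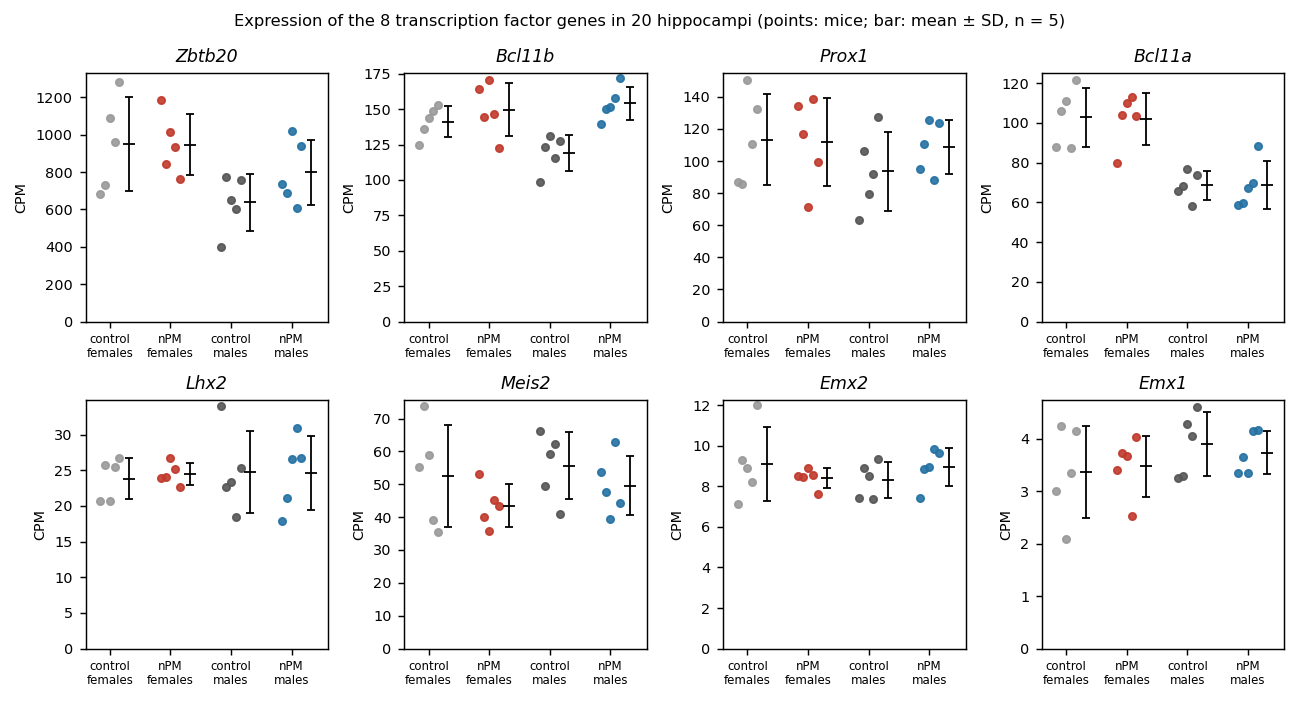
CPM of each gene by group, with 1 point per mouse and the mean ± SD of 5 mice beside the points; each vertical axis starts at 0. Bcl11b is lowest in control males (98.6 to 131 CPM) and Bcl11a is lower in both male groups (58.1 to 88.4 CPM) than in most females.

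Bcl11b was 119 ± 12.8 CPM in control males (SD, n = 5) and 154 ± 11.7 CPM in nPM males. The 5 control males had 98.6, 123, 131, 116 and 127 CPM. The 5 nPM males had 139.8, 149.9, 151, 158 and 172 CPM. Every nPM male was above every control male, which is how the gene was picked. The log2 fold change was 0.37 (SE 0.084), or 1.30-fold. Of all tested genes, 0.369% were higher after nPM without overlap between the 2 male groups and 0.207% passed p under 0.005, and nothing is read from this gene's place among them. The difference ran from 0.31 to 0.41 when each male was left out in turn and from 0.30 to 0.38 under the other settings tried. Those fits reuse the males that chose the gene, so their range is no support for the difference.

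In females, the contrast that played no part in the choice, Bcl11b did not pass the test. The 5 control females had 125, 136, 144, 149 and 153 CPM, and the 5 nPM females 164, 145, 171, 146 and 122 CPM. The groups overlapped, and the nPM females held both the highest and the lowest female value. The means were 141 ± 11.1 CPM and 149.6 ± 18.9 CPM (SD, n = 5). The log2 fold change of 0.08 (SE 0.096) had a 95% interval from -0.13 to 0.29 (adjusted p = 1.0 in limma-voom, two-sided exact permutation p = 0.468). That interval leaves room for a rise of up to 0.29 as well as for a fall. Without nPM_F replicate 1, the sample with striatal markers, the value was 0.04 (SE 0.10). Over all 10 fits that left out 1 female it ran from 0.03 (SE 0.096, without nPM_F replicate 3) to 0.15 (SE 0.087, without nPM_F replicate 5), and it passed in 0 of them.

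Set side by side, control males were the low group for Bcl11b, and nPM males (154 CPM) lay near control females (141 CPM) and nPM females (149.6 CPM). Over both sexes the log2 fold change was 0.23 (SE 0.071), and the male difference exceeded the female one by 0.30 (SE 0.13). Both values share the male samples that chose the gene and so have no test. A difference between the sexes in the nPM response of Bcl11b is therefore not shown.

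The paralog Bcl11a passed no test of nPM. It was 68.5 ± 7.34 CPM in control males and 68.8 ± 12 CPM in nPM males (SD, n = 5), with a log2 fold change of -0.0028 (SE 0.11, 95% interval from -0.25 to 0.25, adjusted p = 0.999 in limma-voom). In females it was 103 ± 15 CPM in controls and 102 ± 13.1 CPM after nPM, a log2 difference of -0.0079 (SE 0.12, 95% interval from -0.27 to 0.25, adjusted p = 1.0).

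None of the other factors passed a test of nPM. Of the 7 tested in males, 0 had p under 0.005 and 0 had p under 0.05 in limma-voom, against 0.207% and 4.28% of all genes. Of the 8 tested in females, also 0 passed either threshold, against 0.0859% and 2% of all genes. The edgeR quasi-likelihood and DESeq2 tests likewise put 0 of them under p of 0.005 in either sex. The 7 male log2 fold changes ran from -0.16 to 0.33 with a median of 0.01, and 4 were positive, while the median of all tested genes was -0.0013. In females the 8 ran from -0.23 to 0.12 with a median of 0.006 beside -0.01 for all genes. Over both sexes, with sex as a covariate, 0 of the 7 passed p under 0.005, against 0.141% of all genes. No gene of the 19797 had an adjusted p under 0.05 in either sex, and 848 genes in males and 395 in females had an unadjusted p under 0.05.

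Zbtb20, the hippocampal fate repressor, had the highest male value of the 7 tested genes, but it passed no test. Control males had 399.5, 775, 652, 601 and 760.4 CPM, and nPM males 734, 687, 1021, 609 and 939.7 CPM. The groups overlapped, with 1 control male well below the rest. Its male difference was 0.33 on the log2 scale (SE 0.19, 95% interval from -0.08 to 0.74, exact permutation p = 0.183, adjusted p = 0.963 in limma-voom). In females it was 0.02 (SE 0.17, exact permutation p = 0.921). Without single males the male value ran from 0.18 (without Ct_M replicate 1) to 0.43 (without nPM_M replicate 4).

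Prox1, the granule cell factor, was 93.7 ± 24.6 CPM in control males and 109 ± 16.8 CPM in nPM males (SD, n = 5). Control males had 63.5, 106, 79.5, 91.7 and 128 CPM, and nPM males 95.1, 111, 126, 88.3 and 124 CPM, so the groups overlapped over most of their range. On the log2 scale the difference was 0.24 (SE 0.17, 95% interval from -0.13 to 0.61, exact permutation p = 0.270, adjusted p = 0.963 in limma-voom). In females it was -0.02 (SE 0.20, exact permutation p = 0.968). Without single males the male value ran from 0.11 (without Ct_M replicate 1) to 0.36 (without Ct_M replicate 5), and it did not pass p under 0.005 in any of these fits.

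Meis2 was the one factor with a negative value of some size in both sexes, though it passed no test in either. Its log2 fold change was -0.16 in males (SE 0.15, exact permutation p = 0.357) and -0.23 in females (SE 0.19, exact permutation p = 0.341), and -0.20 over both sexes (SE 0.12, adjusted p = 1.0 in limma-voom). The male value was -0.08 without nPM_M replicate 3 and -0.27 without Ct_M replicate 5, and the female value -0.10 without Ct_F replicate 2 and -0.35 without Ct_F replicate 5. The nPM females had 35.8 to 53.3 CPM and the control females 35.4 to 73.7 CPM. The progenitor factors were close to even: Emx2 differed by 0.10 in males and -0.08 in females, Emx1 by -0.07 and 0.12, and Lhx2 by 0.01 and 0.05, on the log2 scale, with adjusted p of at least 0.963. The sex by nPM interaction passed in 0 of the 7 tested genes (adjusted p of at least 0.987 in limma-voom), where 0.217% of all genes had p under 0.005.

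**Figure D2:**
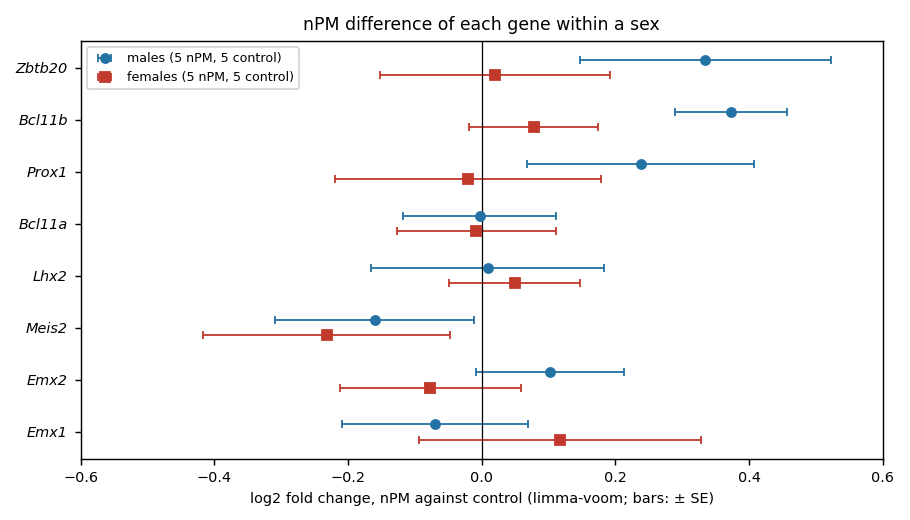
Log2 fold change of each gene between 5 nPM and 5 control mice of a sex, from limma-voom, with bars of ± SE; circles are males and squares females. Bcl11b in males (0.37, described and not tested) and Zbtb20 in males (0.33) stand farthest to the right, and every female value lies between -0.23 and 0.12.

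The largest contrast among the 8 genes lay between males and females. Bcl11a was lower in males by a log2 fold change of -0.58 (0.671-fold, SE 0.084, 95% interval from -0.75 to -0.40, adjusted p = 3.22e-05 in limma-voom with exposure as a covariate). Females had 88.0, 106, 111, 87.1 and 122 CPM as controls and 79.8, 104, 110.1, 113 and 103 CPM after nPM. Males had 65.5, 68.4, 77.0, 58.1 and 73.6 CPM as controls and 58.7, 59.6, 67.4, 69.7 and 88.4 CPM after nPM. The sexes overlapped, since nPM_M replicate 5 (88.4 CPM) was above nPM_F replicate 1 (79.8 CPM). Leaving out each sample in turn kept the value between -0.62 and -0.55.

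This was 1 of 7 tested genes at p under 0.005, in a contrast that called 31.1% of all genes, so the share is no higher than the background. Zbtb20 was lower in males by -0.42 (SE 0.14, adjusted p = 0.0202), short of p under 0.005 but past the adjusted threshold that 40.4% of all genes passed. With the CA3 marker score as a covariate its value was -0.18 (SE 0.086). The other 5 tested factors had adjusted p of at least 0.245, and Bcl11b differed by -0.10 (SE 0.071, described). Males were all older than females in weeks and received EdU, so sex, age and EdU cannot be told apart. With age as a covariate the Bcl11a value was -0.03 (SE 0.22, beside 0.084 without age) and no longer passed the test. Since the ages of the sexes do not overlap, that fit cannot separate age from sex. Endothelial marker scores (mean log2 CPM of 5 genes) were 4.15 to 4.79 in females and 3.78 to 4.10 in males, and their part in the result was not tested.

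Within groups, several of the factors varied together with lists of cell type and region markers. For each of 14 lists of cell type and region markers a score was taken as the mean log2 CPM of its genes, group means were removed from scores and factors, and all 112 pairs were tested by permutation within groups. The adjusted p was under 0.05 for 5 pairs, and the unadjusted p for 21. In whole tissue, more cells of a type and more RNA per cell cannot be told apart, and all pairs share the same 20 libraries. A relation with a list thus does not show that its cells express the factor.

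Prox1 tracked dentate granule cell markers most closely of all pairs, with r = 0.927 and rho = 0.881 (n = 20, permutation p = 1e-05 for each, the smallest the permutations can give, adjusted p = 0.00112). The relation held in males (r = 0.938) and in females (r = 0.919), and r was 0.879 without the 2 samples farthest from the median score. It had an adjusted p under 0.05 in all 20 fits that left out 1 sample. Prox1 itself was not in the list, which holds C1ql2, Dsp, Tdo2, Lct, Trpc6, Glis3, Npnt and Calb1. With the interneuron list Prox1 had r = -0.678 and rho = -0.687 (adjusted permutation p = 0.0624 and 0.069). That r was -0.386 in males and -0.834 in females.

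Bcl11b and Zbtb20 both followed the CA3 list (Bok, Cpne4, Grik4, Iyd and Cdh24). Whether they followed it more closely than the dentate list was not tested. For Bcl11b and CA3, r was 0.805 and rho 0.770 (n = 20, permutation p = 0.00048 and 0.00077, adjusted p = 0.0134 and 0.0216), with r = 0.679 in males and 0.924 in females. Without the 2 farthest samples r was 0.623, and without Ct_M replicate 1, the control male lowest in Bcl11b and Zbtb20, r was 0.728 with an adjusted permutation p of 0.0624. For Bcl11b and the dentate list r was 0.288 (rho 0.340, permutation p = 0.320 and 0.191). For the CA2 list it was 0.598 (rho 0.549, permutation p = 0.0163 and 0.0223, adjusted p = 0.144 and 0.176). With the CA1 list r was 0.434 (rho 0.320, permutation p = 0.0912 and 0.214). With the neocortex list r was -0.275 (permutation p = 0.239), but 0.484 in males and -0.853 in females.

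For Zbtb20 and CA3, r was 0.839 and rho 0.792 (n = 20, permutation p = 8e-05 and 0.00021, adjusted p = 0.00448 and 0.00784), with r = 0.877 in males, 0.797 in females and 0.752 without the 2 farthest samples. Zbtb20 also went with dentate markers by rank (rho = 0.705, adjusted permutation p = 0.0276), while its r of 0.606 had an adjusted permutation p of 0.0733. Its r with the CA2 list was 0.674 (rho 0.654, permutation p = 0.00368 and 0.00493, adjusted p = 0.0589 and 0.069). With the neocortex list its r was -0.581 (rho -0.660, adjusted permutation p = 0.144 and 0.0738), with -0.181 in males and -0.964 in females. Meis2 ran the opposite way to CA3 markers, with r = -0.686 and rho = -0.683 (permutation p = 0.0019 and 0.00344, adjusted p = 0.0426 and 0.0642). It is the least steady of the 5 pairs, and kept an adjusted p under 0.05 in 6 of 20 fits that left out 1 sample.

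Lhx2 fell as thalamic markers rose, with r = -0.838 and rho = -0.829 (n = 20, permutation p = 0.00019 and 7e-05, adjusted p = 0.00709 and 0.00392). The values were -0.843 in males, -0.932 in females and -0.779 without the 2 farthest samples. With summed CPM in place of the mean log2 score, r was -0.632 (adjusted permutation p = 0.0741). Lhx2 also fell as oligodendrocyte markers rose, with r = -0.711 and rho = -0.592 (adjusted permutation p = 0.0589 and 0.117). That r was -0.812 in males and -0.245 in females. The thalamus borders the hippocampus, and its markers summed to between 181 and 388 CPM. Gbx2, a listed marker, was at 0 in some samples of every group and at most at 0.0992 CPM in any. It did not pass the low-count filter, so the score holds the other 7 of the 8 listed genes. Bcl11a, Emx1 and Emx2 had no pair under an adjusted p of 0.05.

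**Figure D3:**
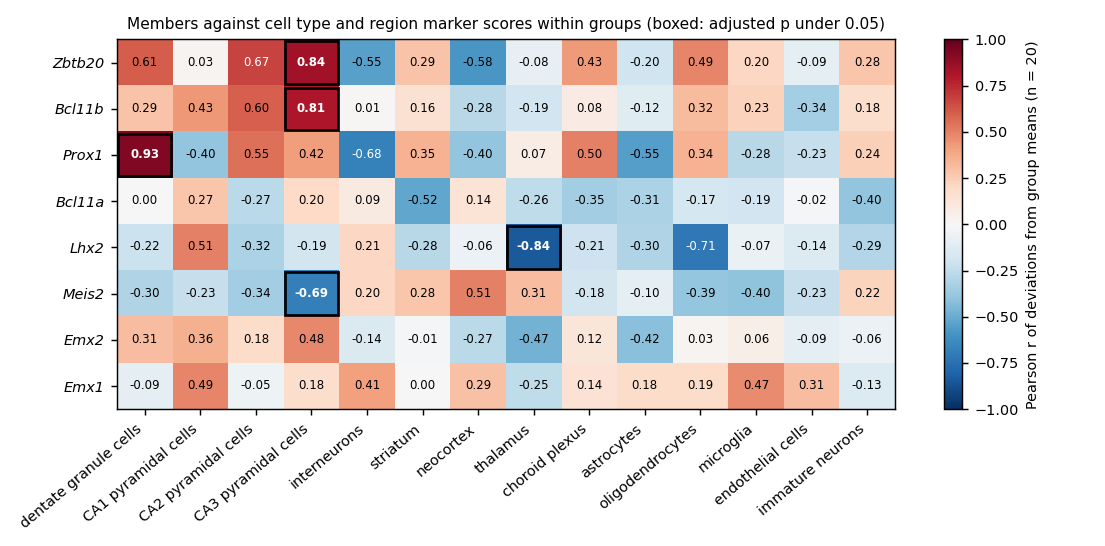
Pearson r between each gene (rows) and each marker score (columns) over deviations from group means in 20 samples, with red for positive and blue for negative values. The 5 boxed cells, from 0.93 for Prox1 and dentate markers to -0.84 for Lhx2 and thalamic markers, have an adjusted permutation p under 0.05.

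**Figure D4:**
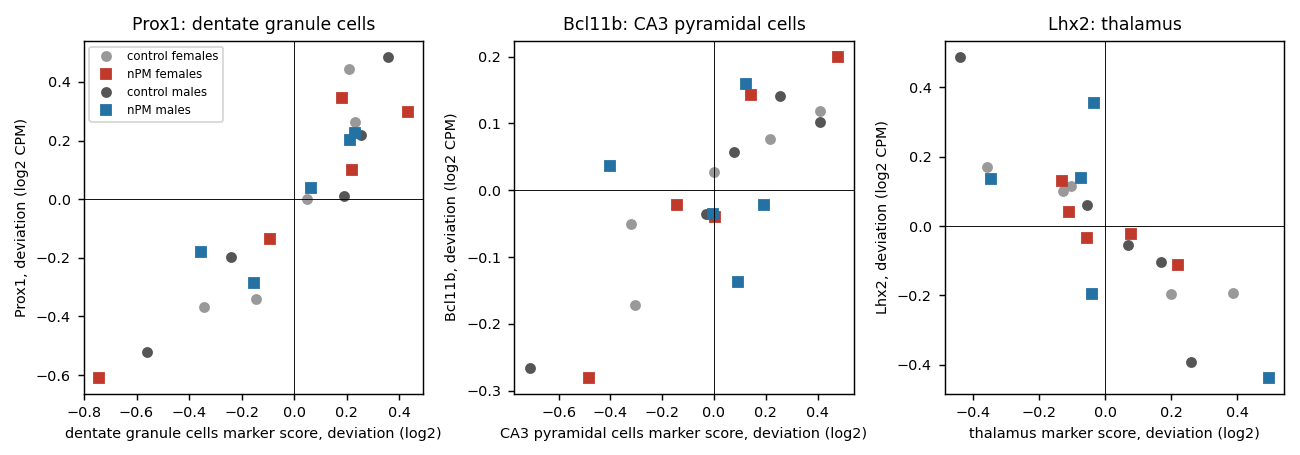
Deviations of Prox1, Bcl11b and Lhx2 from their group means (log2 CPM) against deviations of a marker score, with 1 point per mouse, circles for control and squares for nPM groups. Prox1 rises with dentate granule cell markers (r = 0.927), Bcl11b rises with CA3 markers (r = 0.805) with 1 control male and 1 nPM female at the low end, and Lhx2 falls with thalamic markers (r = -0.838).

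These relations stand beside the male values of Bcl11b. In nPM males the CA3 score was 4.26 ± 0.24 against 4.0 ± 0.43 in control males (SD, n = 5), with 4 of 5 CA3 markers higher and 1 with p under 0.05 (4.28% of all genes in males). A rise was not particular to CA3: of 5 CA1 markers 4 were higher and 2 had p under 0.05. Also higher were 4 of 5 CA2, 6 of 8 dentate and 6 of 6 oligodendrocyte markers, but only 4 of 9 interneuron and 1 of 10 choroid plexus markers. With the CA3 score as a covariate, an alternative chosen after the data were seen, the male Bcl11b difference was 0.30 (SE 0.0748), beside 0.37 without it. The same covariate took the male value of Zbtb20 from 0.33 to 0.10, of Prox1 from 0.24 to 0.05 and of Meis2 from -0.16 to -0.0094. Striatal markers were higher in nPM males for 9 of 13 genes, 2 of them with p under 0.05, and summed to 171 to 210 CPM in control and 167 to 221 CPM in nPM males. The striatal score was 2.45 ± 0.21 in nPM males against 2.13 ± 0.44 in control males (SD, n = 5). Of the defining striatal markers, Drd2 was at 0.634 to 1.67 CPM in control and 0.842 to 1.92 CPM in nPM males. In the same order, Adora2a was at 0.447 to 1.0 and 0.848 to 2.15 CPM, and Drd1 at 5.75 to 13.3 and 6.19 to 10.4 CPM. With the striatal score as a covariate the Bcl11b difference was 0.36 (SE 0.095). Both covariate values of Bcl11b come from the males that chose it and are descriptions without a test. Within groups Bcl11b and the striatal score had r = 0.156 and rho = -0.008 (permutation p = 0.648 and 0.981). Neocortical markers were higher in nPM males for 1 of 8 genes, and 2 of the 8 had p under 0.05.

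The factors also moved with each other inside groups. Of 28 pairs, 4 had an adjusted permutation p under 0.05 and 6 an unadjusted one. Bcl11b went with Zbtb20 (r = 0.742, rho = 0.729, n = 20, permutation p = 0.00043 and 0.0007, adjusted p = 0.00602 and 0.0132) and with Emx2 (r = 0.678, rho = 0.695, permutation p = 0.00016 and 0.00094, adjusted p = 0.00448 and 0.0132). The first was 0.691 in males and 0.800 in females, the second 0.787 and 0.605, and without the 2 farthest samples they were 0.583 and 0.684. Prox1 went with Zbtb20 (r = 0.715, rho = 0.695, permutation p = 0.0017 and 0.00268, adjusted p = 0.0159 and 0.0231, r = 0.594 without the 2 farthest), and Bcl11a with Emx2 (r = 0.658, rho = 0.683, permutation p = 0.00318 and 0.0033, adjusted p = 0.0223 and 0.0231, r = 0.578 without them). The paralogs Bcl11a and Bcl11b had r = 0.355 (rho 0.418, permutation p = 0.144 and 0.0896).

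Among all tested genes, those with the pattern most like Bcl11b over log2 CPM of the 20 samples were Grin2a, an NMDA receptor subunit (r = 0.846), Abl2, a tyrosine kinase (r = 0.835), Igsf11, an adhesion protein (r = 0.830), Hunk, a kinase (r = 0.822), and the noncoding transcript 2310002F09Rik (r = 0.820). The ranking uses the male values that chose Bcl11b, so a likeness in group means is fixed by it. Grin2a had means of 961 CPM in control females, 987 CPM in nPM females, 824 CPM in control males and 967 CPM in nPM males. Over deviations from group means the closest were Abl2 (r = 0.893), Abr (r = 0.893), Ptk2b (r = 0.872), 2010300C02Rik (r = 0.867) and Prickle2 (r = 0.861). Zbtb20 ranked 44 among 19796 genes by levels and 87 by deviations, and Emx2 457 and 192. Bcl11a ranked 3014 and 2479.

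The partners of these factors were looked at in 4 lists of related genes, 89 in all, each of which was tested. The counts at p under 0.05 below stand beside 4.28% of all genes in males and 2% in females. In males and in females 0 genes of any list had p under 0.005, beside 0.207% and 0.0859% of all genes, and the same held over both sexes and for the interaction. Among the 26 BAF subunits, the chromatin complex that Bcl11 proteins join, the male median log2 fold change was 0.03 (all genes -0.0013) and only Dpf3, a histone reader, had p under 0.05 (0.36, SE 0.16, adjusted p = 0.963). Of the 15 NuRD subunits 0 had p under 0.05 in either sex, and the smallest male p was that of Cdk2ap1 (0.16, adjusted p = 0.963). Of the 17 TALE and LIM partners, Ldb2, a cofactor of LIM homeodomain proteins such as Lhx2, had -0.54 in males (SE 0.19) and Lmo4, a LIM-only protein, -0.24 (SE 0.094), with p under 0.05 but adjusted p = 0.963 for both.

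Of 31 other forebrain transcription factors, 3 were higher and 2 lower in males at p under 0.05, a threshold that 4.28% of all genes passed. The smallest p belonged to Neurod2, a neuronal differentiation factor, with a male difference of 0.39 on the log2 scale (SE 0.12, adjusted p = 0.963) and means of 42.8 ± 4.84 CPM in control males and 56.7 ± 10.4 CPM in nPM males (SD, n = 5). In females 0 genes of the 4 lists had p under 0.05. The remaining genes with the smallest p of a list were in males Ss18 (0.17, SE 0.12) and Chd4 (0.06, SE 0.051), with adjusted p = 0.963 in limma-voom. In females they were the BAF subunits Actl6a (0.17, SE 0.11) and Arid1a (-0.11, SE 0.091), the NuRD subunits Mta3 (-0.10, SE 0.082) and Gatad2b (-0.12, SE 0.093), Ssbp3 (-0.15, SE 0.083) and Pbx2 (0.12, SE 0.078) among the TALE and LIM partners, and Sox11 (-0.22, SE 0.12) and Sox5 (-0.18, SE 0.11) among the forebrain factors, all with adjusted p = 1.0.

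Between the sexes, where 31.1% of all genes had p under 0.005, 8 of the 26 BAF subunits did, 7 of them lower in males (17.1% of all genes were lower at that threshold). Arid1a (-0.54, SE 0.077, limma adjusted p = 2.58e-05) and the ATPase Smarca4 (-0.36, SE 0.060, limma adjusted p = 0.000113) were lower beside Bcl11a, as were Smarcb1, Dpf3, Smarcd1, Arid1b and Dpf2, and Smarce1 was higher. The median BAF value was -0.09 beside 0.02 for all genes. Of the NuRD subunits 3 rose (Rbbp4, Hdac2 and Rbbp7) and 3 fell (Gatad2b, Chd4 and Mta1, the last by 0.49 on the log2 scale), and of the TALE and LIM partners only Lmo4 passed (0.31). Among the other forebrain factors Nfix (-0.58) and Mef2d (-0.37) were lower in males, and Id2 (0.47) and Mef2a (0.21) higher.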

How the data were processed

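Hippocampal RNA of 20 mice, 5 per sex and exposure, was analysed. The authors trimmed reads where needed (Trimmomatic), aligned them to mm10 with HISAT2 and counted them with featureCounts 1.5.0-p3 on Gencode M11. They deposited raw counts for 48709 genes. The gene table they deposited holds lengths and positions, and a mean RPKM per gene that agreed within 4.91e-11 with one recomputed from the counts. Genes without a symbol (343) held 0.045% of counts.

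From the counts, TMM factors (0.958 to 1.06) were computed with edgeR 4.0.16, and filterByExpr over the 4 groups (minimum count 10, minimum total 15) left 19797 genes. limma-voom (limma 3.58.1, R 4.3.3, offset 0.5) with eBayes was fitted on all of them in males, in females, in both sexes with sex as a covariate (and exposure for the sex difference), and with an interaction. Thresholds were p under 0.005, as in the study's methods, and a Benjamini-Hochberg adjusted p under 0.05. RPKM used each sample's total count. Within-group relations used 100000 permutations. Exact permutation tests of 5 against 5 cannot give p below 0.00794. Totals of 19092067 to 38663408 put 3 counts, the limit for a gene at 0, at 0.0776 to 0.157 CPM, for counting error only.

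Named genes were the 8 factors, the 5 genes closest to Bcl11b by each measure, and in the related lists those with p under 0.005 plus the 2 smallest p per sex. Of the genes this rule names, 1 is not reported here. Drd2, Gbx2 and marker genes were named as parts of the lists. The factors and all lists were chosen with earlier results of these data known, and the pairs of factors and the start-site windows were added after the values were seen. The alternatives were RLE scaling, no filter, edgeR quasi-likelihood, DESeq2 1.42.0, protein-coding genes, quality weights, age, a replicate block, marker score covariates, thinned counts, 1 fit of the 4 groups, exact tests and each sample left out. On simulated data with 200 of 19797 genes changed 2-fold, p under 0.005 recovered 159 in males, 147 in females and 174 between the sexes. The same threshold recovered 179 over both sexes and 118 for the interaction. Smaller changes, such as the nPM differences of these factors, were not simulated, so their recovery is not known. Sample numbers did not pair samples across groups: deviations of same-numbered samples had r from -0.364 to 0.224 over 20 pairs, 7 of them above 0.1.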

Additional observations from a re-analysis of the deposited data

Results flagged for a closer look

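Of 32 groups (8 factors in 4 groups of 5 mice), 1 held a sample that stood apart from the other 4. Bcl11a in nPM_F replicate 1 was 79.8 CPM, the lowest of its group, with a gap to the next sample of 0.738 of the group's range, above the critical ratio of 0.71. Chance gives such a gap in about 1 in 20 groups. The same library had the highest striatal (650 summed CPM) and choroid plexus (8710 summed CPM) marker levels, whose part in the value was not tested. Without it the Bcl11a difference in females was 0.08 on the log2 scale (SE 0.11), and the sex difference was -0.62 (SE 0.079).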

How the results depend on the processing

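The 0 of 7 or 8 factors past p under 0.005 in each nPM comparison was 0 under each alternative that gives this count and in every fit that left out 1 sample (0 to 0). Exact tests of 5 against 5 cannot reach that threshold and gave no count. The replicate block, with sample numbers that do not pair the samples, gave 0 in each nPM comparison and 1 between the sexes. Between the sexes the count of 1 became 2 with DESeq2, with protein-coding genes and with the striatal score, where Zbtb20 passed too (-0.41, -0.46 and -0.44), and 0 with age as a covariate. Leaving out 1 sample gave 1 to 2, with 2 without Ct_F replicate 1, nPM_F replicate 5, nPM_M replicate 3 or nPM_M replicate 5. The 5 relations with marker lists were 4 to 7 under other scores and scalings, and 3 to 8 with 1 sample left out (3 without Ct_M replicate 1, 8 without nPM_F replicate 3).

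Values near 0 changed sign and passed no test either way. In males, Bcl11a was 0.0091 (no filter), 0.0059 (edgeR), 0.0041 (DESeq2), 0.093 (striatal covariate), and Lhx2 was -0.0043 (edgeR), -0.0076 (DESeq2), -0.028 (thinned counts), -0.0028 (plain means). In females, Bcl11a was 0.0015 (DESeq2), 0.027 (quality weights), 0.042 (age), 0.019 (thinned counts), Prox1 was 0.0025 (quality weights), 0.014 (age), 0.0067 (thinned counts), and Zbtb20 was -0.0037 (edgeR), -0.0085 (quality weights). Over both sexes, Bcl11a was 0.0023 (no filter), 0.0083 (quality weights), 0.014 (age), 0.011 (striatal covariate), Emx1 was -0.0058 (edgeR), -0.0026 (DESeq2), Emx2 was -0.0036 (edgeR), -0.0002 (DESeq2), -0.019 (CA3 covariate), -0.0050 (thinned counts), and Lhx2 was -0.0050 (thinned counts). In the interaction, Bcl11a was -0.032 (quality weights), -0.027 (age), -0.025 (CA3 covariate), -0.058 (thinned counts), and Lhx2 was 0.077 (quality weights). Between the sexes, Emx2 was 0.0005 (no filter), 0.051 (quality weights), 0.24 (age), 0.064 (CA3 covariate), 0.020 (thinned counts), Lhx2 was -0.038 (protein-coding genes), -0.029 (CA3 covariate), and Meis2 was -0.017 (CA3 covariate). With 1 sample left out in turn, the values that changed sign ran as follows: in males Bcl11a -0.097 to 0.051, Lhx2 -0.099 to 0.12, in females Bcl11a -0.065 to 0.080, Prox1 -0.11 to 0.13, Zbtb20 -0.089 to 0.14, Emx1 -0.048 to 0.21, Emx2 -0.16 to 0.011, over both sexes Bcl11a -0.049 to 0.036, Emx1 -0.059 to 0.058, Emx2 -0.013 to 0.062, Lhx2 -0.024 to 0.086, in the interaction Bcl11a -0.089 to 0.062, Lhx2 -0.15 to 0.073, Meis2 -0.059 to 0.19, and between the sexes Emx2 -0.040 to 0.041, Lhx2 -0.048 to 0.063. With age, Bcl11b between the sexes was 0.16 (SE 0.21). The causes were not tested.

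Counts over all genes at p under 0.005 moved by more than 1.5 times in these settings. In males 41 became 132 without the filter, 113 with DESeq2 and 124 with the striatal score. In females 17 became 89, 55 and 83, and 28 with edgeR and 41 with quality weights. Over both sexes 28 became 71 without the filter, 43 with DESeq2 and 53 with quality weights. For the interaction 43 became 149 without the filter, 66 with edgeR, 89 with DESeq2, 20 with protein-coding genes and 102 with the striatal score. Between the sexes 6147 became 84 with age, in a fit that cannot separate age from sex. Depth limits Emx1 most, at 46 to 165 counts per sample, and Emx2 at 156 to 357. The other 6 factors had at least 459 counts in every sample, so spread between mice rather than counting limits them.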
